A study of Homo sapiens with 4 samples.

Results

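The 40 genes described here encode the enzymes of glycolysis, its transporters and regulators, and other transcriptional targets of the hypoxia response. They were taken from a list of symbols for these pathways, with no threshold on the measured values, and all 40 of 40 were found among the 29387 genes listed in every raw count table. They comprise 17 glycolytic enzymes, 2 regulators of fructose 2,6-bisphosphate, 4 glucose or lactate transporters, 2 pyruvate dehydrogenase kinases, 13 other hypoxia targets and 2 alpha subunits of the hypoxia-inducible factors (HIF). Polyadenylated RNA of U87MG, an established human glioblastoma cell line, was sequenced from 2 invasive and 2 poorly invasive control populations. Parental cells, otherwise grown in DMEM with 10% serum, spent 1 week on organotypic brain slices, in a stem cell medium that contained FGF and EGF. Both kinds of population were then recovered from the slices and expanded in vitro for 3 to 5 days, so the RNA records cells that had left the slice. The study paired invasive 1 with control 1 and invasive 2 with control 2. The labels call each invasive population a clone as well as a population, and each is represented by 1 library.

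Glycolysis splits glucose to pyruvate, and lactate dehydrogenase can reduce that pyruvate to lactate. When oxygen is low, the prolyl hydroxylases that mark HIF alpha subunits for degradation slow down, and the stabilised subunit, with its partner ARNT, binds short DNA elements with the core ACGTG or GCGTG near its target genes. Those targets include most of the glycolytic enzymes as well as genes for pH control, mitophagy and vascular growth, and glioblastoma is known for both high lactate output and hypoxic zones.

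Because HIF binds such core motifs, the promoter windows of 4 genes on which the results turn are shown. They are CA9 and PFKFB4, which separated the pairs, LDHA, the lactate-forming enzyme, and EPAS1, which had the widest difference between the groups. Each window runs 5′ to 3′ on the gene's strand, from 250 bases before to 50 bases after a RefSeq start (GRCh38.p14), with the letters ACGTG or GCGTG on either strand in capitals. The windows lie at chr9:35673678-35673977 (plus strand, CA9), chr3:48556754-48557053 (minus strand, PFKFB4), chr11:18394313-18394612 (plus strand, LDHA, the first of its 2 windows) and chr2:46297157-46297456 (plus strand, EPAS1).
CA9: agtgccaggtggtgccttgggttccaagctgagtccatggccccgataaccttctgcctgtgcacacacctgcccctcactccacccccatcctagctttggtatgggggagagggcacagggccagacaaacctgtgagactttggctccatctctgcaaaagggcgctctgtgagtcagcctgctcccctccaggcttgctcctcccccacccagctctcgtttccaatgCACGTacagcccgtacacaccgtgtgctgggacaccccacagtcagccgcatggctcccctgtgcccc
PFKFB4: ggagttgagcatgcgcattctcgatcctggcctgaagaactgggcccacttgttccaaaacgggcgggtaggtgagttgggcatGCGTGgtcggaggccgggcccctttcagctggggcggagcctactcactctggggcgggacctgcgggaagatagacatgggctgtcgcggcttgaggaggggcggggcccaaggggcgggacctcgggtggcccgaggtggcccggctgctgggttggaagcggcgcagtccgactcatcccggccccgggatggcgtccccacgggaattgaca
LDHA: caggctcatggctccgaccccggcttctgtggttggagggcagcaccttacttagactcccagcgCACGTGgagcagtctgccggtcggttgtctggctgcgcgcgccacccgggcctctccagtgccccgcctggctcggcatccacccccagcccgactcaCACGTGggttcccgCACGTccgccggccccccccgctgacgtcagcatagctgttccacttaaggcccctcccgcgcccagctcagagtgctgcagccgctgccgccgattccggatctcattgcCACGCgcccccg
EPAS1: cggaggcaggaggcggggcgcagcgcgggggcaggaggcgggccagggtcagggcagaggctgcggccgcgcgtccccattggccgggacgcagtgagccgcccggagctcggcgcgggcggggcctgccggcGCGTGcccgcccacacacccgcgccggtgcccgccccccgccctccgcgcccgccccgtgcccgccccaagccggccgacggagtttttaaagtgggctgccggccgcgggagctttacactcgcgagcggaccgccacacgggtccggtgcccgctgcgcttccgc
The CA9 window held 1 match, to ACGTG on the opposite strand, and those of PFKFB4 and EPAS1 held 1 match each, to GCGTG. The LDHA window held 4 separate capital stretches, and 2 of them are the palindrome CACGTG, which matches on both strands.

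Promoter windows were found for 36 of the 40 genes. SLC2A3, SLC16A1, BNIP3L and NDRG1 were not matched. ACGTG, on either strand, was present in 26 of the 66 windows of these genes (39.4%) and in 21.4% of all 35116 windows of the same length. Among the glycolytic enzymes 11 of 17 genes had at least 1 window with it, and among the other hypoxia targets 7 of 11 matched genes. Over all promoter windows, 6790 of 27305 genes did. Genes differ in their number of windows, and per window the enzymes were at 40.5% of 37 and the other targets at 50% of 14. Either motif, overlaps between them included, occurred in 69.7% of the windows of these genes and in 48.4% of all windows. A match describes letters in the window and is not evidence of binding.

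The libraries held 15466653 and 13829215 counts in invasive 1 and 2, against 17817525 and 15443420 in control 1 and 2, over the shared genes. Levels are given as CPM, each gene's count scaled to the size of its library in the usual way. At these depths 3 counts correspond to 0.168 to 0.217 CPM, the level that a count of 0 still allows by counting error alone. Markers reported for this line, among them VIM and CD44, were expressed in all 4 libraries, and CDKN2A and CDKN2B, which this line has lost, had at most 2 counts. AQP4 of astrocytes, MOG of oligodendrocytes, P2RY12 of microglia and CLDN5 of endothelium were at 0 in all 4. On the same lists SLC1A3 of astrocytes was at 21.5 to 38.4 CPM and CSF1R of microglia at 10.1 to 21.3 CPM. SNAP25 and GAD1 of neurons were at 26.3 to 40.3 CPM and 13.7 to 20.8 CPM. RBFOX3 and SLC17A7, also of neurons, had at most 2 counts. Oligodendrocyte and endothelial markers summed to 0.217 to 1.88 CPM per library, microglia markers to 10.2 to 21.4 CPM, astrocyte markers to 23.7 to 41.3 CPM and neuron markers to 52.7 to 62.5 CPM. The labels do not name the animal that provided the slices. Control 2 stood apart on the sum of 12 inflammatory genes, which was 171 and 269 CPM in invasive 1 and 2, against 121 and 2425 CPM in control 1 and 2. It was the highest library for 11 of the 12, and IL1A was highest in invasive 2.

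U87MG cells of both groups expressed the glycolytic pathway at very high levels. The 17 enzymes together took 2.46% and 2.1% of all counts in invasive 1 and 2, against 2.53% and 2.13% in control 1 and 2. To compare genes with one another, counts were divided by exon length and expressed as TPM, a unit that corrects for transcript length and library size. On that scale GAPDH, which oxidises glyceraldehyde 3-phosphate and is widely used as a reference gene, was the highest of the 40 with 7735 and 6691 TPM in the invasive populations, against 8038 and 6639 TPM in the controls. ENO1 (enolase) and PKM (pyruvate kinase) followed with mean levels of 4338 and 4231 TPM, and exchanged ranks when the principal transcript's length was used. LDHA, ALDOA, TPI1, LDHB and PGAM1 all averaged at least 1095 TPM. HIF1A was the highest of the 40 outside the enzymes, at a mean of 476 TPM. The lowest was EGLN3, a prolyl hydroxylase that is itself a HIF target, with 8 and 10 counts in the invasive populations and 19 and 10 in the controls.

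**Figure D1:**
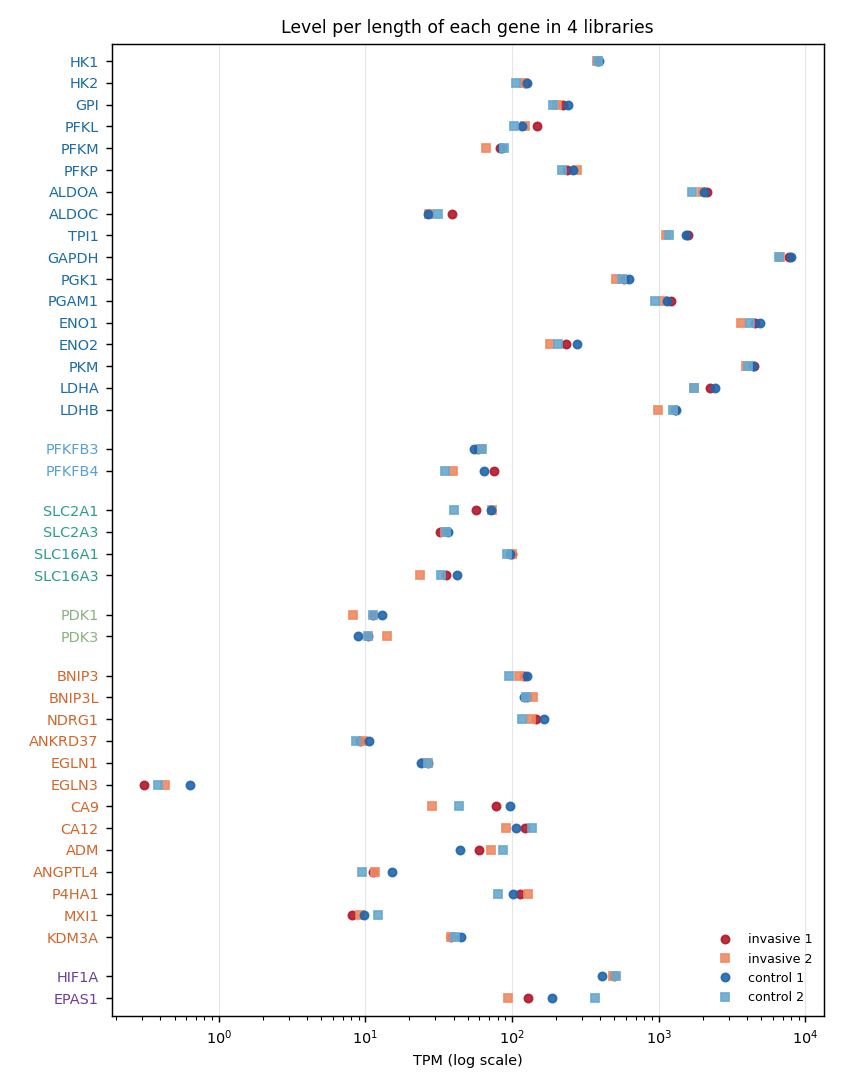
Level per length of the 40 genes in each library, in TPM on a log axis, grouped by role (colours of the names), with circles for pair 1 and squares for pair 2. The 4 points of most genes lie close together, GAPDH sits at the top of the scale near 7276 TPM and EGLN3 at the bottom near 0.441 TPM.

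No gene of the 40 passed the test between invasive and control populations. All 40 passed the filter on low counts, and 0 were called higher and 0 lower by edgeR's quasi-likelihood test, blocked by pair, at a Benjamini-Hochberg adjusted p of 0.05 over 14231 genes. In that test 0.239% of all genes were called higher and 0.0351% lower. The smallest adjusted p among the 40 was 0.15, for CA9. At an unadjusted p under 0.05 there were 2 higher and 4 lower genes of 40, where the background over all genes was 9.82% and 8.41% (18.2% in either direction). DESeq2 with the same block also called 0 of the 40 and left 1 higher and 2 lower at an unadjusted p under 0.05, against 4.24% and 2.74% of all genes in DESeq2. Without the filter on low counts edgeR's test called 1 higher (P4HA1) and 3 lower (CA9, PDK1 and SLC16A3) of the 40, and 2.97% and 2.71% of all 25577 genes in that fit. For 27 of the 40, and 16 of the 17 glycolytic enzymes, the 95% confidence interval of the fold change lay within 1.5-fold in either direction, as did 51.6% of all genes tested. Since these are bulk populations, fewer cells that express a gene and less RNA per cell cannot be told apart.

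The pairs went in opposite directions for 19 of the 40 genes (background 34.7%). Of the others, 7 were higher in both invasive populations than in their paired controls (background 33.4%), and 14 were lower in both (background 31.9%). A difference of at least 1.5-fold in both pairs was seen for 0 higher genes (background 3.77%) and 1 lower gene (background 0.998%), EPAS1. The CPM ranges of the groups did not overlap for 5 genes that were higher in the invasive group (PFKL, SLC16A1, PDK3, BNIP3L and P4HA1; background 23.7%). Nor did they overlap for 5 that were lower (HK1, PFKM, MXI1, KDM3A and EPAS1; background 19.7%).

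**Figure D2:**
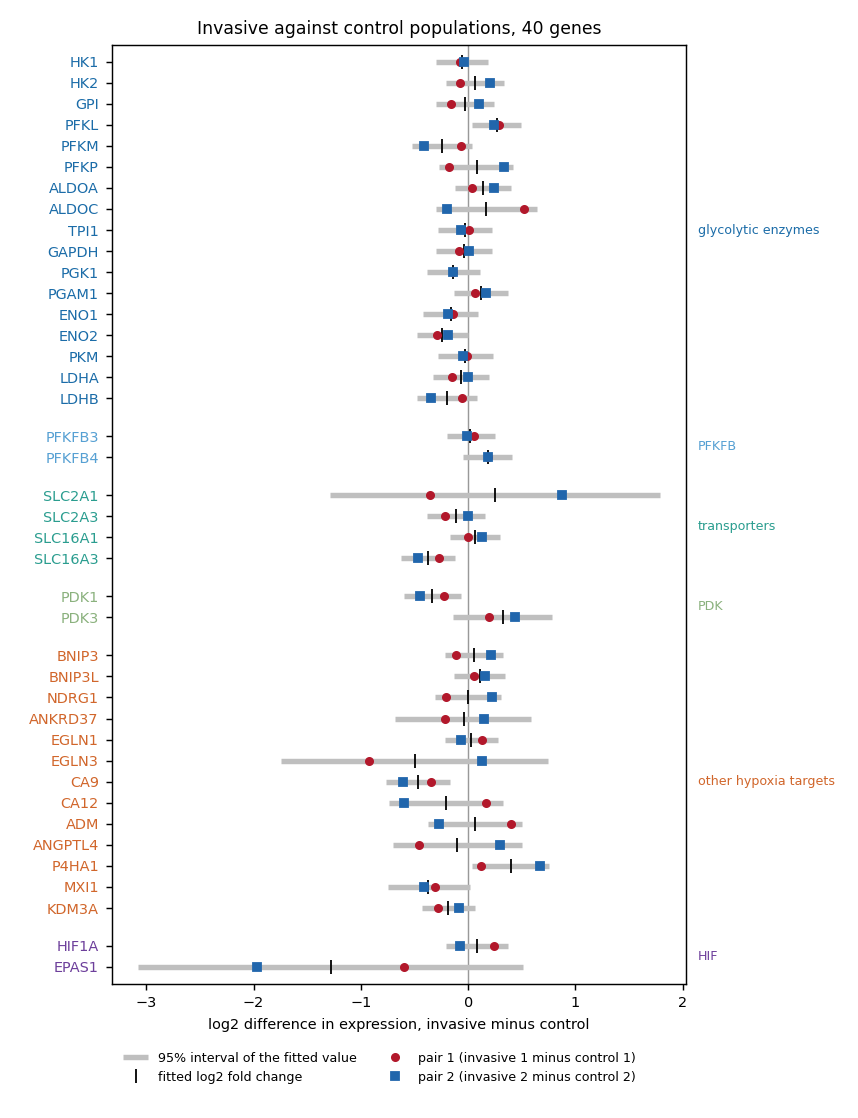
Log2 difference between invasive and control populations for each of the 40 genes, grouped by role: circles are pair 1, squares pair 2, black ticks the fitted value and grey bars its 95% confidence interval. Most fitted values sit within 0.5 log2 units of 0; EPAS1 lies farthest to the left at −1.28, and SLC2A1 has its pairs on opposite sides of 0.

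In the opening, ATP-consuming steps of glycolysis the fitted log2 fold changes ran from −0.24 (PFKM) to 0.27 (PFKL). For hexokinase, which phosphorylates glucose, they were −0.06 ± 0.10 (SE) for HK1 and 0.06 ± 0.11 for HK2. HK1 had 612 and 607 CPM in invasive 1 and 2, against 634 and 621 CPM in control 1 and 2, so both invasive values lay just below both control values. GPI, which converts glucose 6-phosphate to fructose 6-phosphate, was at −0.03 ± 0.11. PFKL, the liver-type phosphofructokinase of the committed step, had 151 and 124 CPM in invasive 1 and 2, against 120 and 105 CPM in control 1 and 2. Both invasive values lay above both control values, by a log2 fold change of 0.27 ± 0.09 that did not pass the adjusted threshold (adjusted p = 0.22). The muscle-type PFKM had 137 and 109 CPM in the invasive populations, against 140 and 145 CPM in the controls (log2 fold change −0.24 ± 0.12). PFKM shares 413 exonic bases with SENP1 on the opposite strand, and it is not known here how the counting treated strand. PFKP, the platelet type and the most abundant of the 3 per length, had 308 and 359 CPM in the invasive populations, against 341 and 285 CPM in the controls, so the groups overlapped. The log2 fold changes of aldolase, which splits fructose 1,6-bisphosphate, were 0.14 ± 0.11 for ALDOA and 0.17 ± 0.19 for ALDOC, the brain isozyme. ALDOA had 1775 and 1642 CPM in the invasive populations, against 1682 and 1390 CPM in the controls, with overlap. TPI1, which interconverts the resulting triose phosphates, was at −0.03 ± 0.10.

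In the ATP-yielding steps and lactate dehydrogenase they ran from −0.24 (ENO2) to 0.12 (PGAM1). GAPDH differed by −0.04 ± 0.11, PGK1, an ATP-forming kinase, by −0.14 ± 0.10, and PGAM1, the mutase after it, by 0.12 ± 0.10. ENO1 had 3787 and 3030 CPM in invasive 1 and 2, against 4082 and 3443 CPM in control 1 and 2. It was lower in each pair, but the groups overlapped, and the log2 fold change was −0.16 ± 0.11. ENO2, the neuronal enolase, had 253 and 197 CPM in the invasive populations, against 302 and 224 CPM in the controls. Its log2 fold change of −0.24 ± 0.10 gave an adjusted p of 0.274 in edgeR's quasi-likelihood test. PKM was at −0.03 ± 0.11. LDHA, which makes lactate from pyruvate, had 2281 and 1793 CPM in the invasive populations, against 2468 and 1787 CPM in the controls, with a log2 fold change of −0.07 ± 0.11. Reads on its 6 annotated pseudogene copies came to 0.947% to 1.27% of its own counts, the highest share among the 40. LDHB, the isozyme of oxidative tissues, was at −0.20 ± 0.12.

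PFKFB3 and PFKFB4 set the level of fructose 2,6-bisphosphate, the main allosteric activator of phosphofructokinase. PFKFB3 had 110 and 116 CPM in invasive 1 and 2, against 104 and 116 CPM in control 1 and 2, a log2 fold change of 0.02 ± 0.09. PFKFB4 had 93 and 48.6 CPM in the invasive populations, against 80 and 42.7 CPM in the controls. It was higher by 0.18 log2 units within each pair, and its larger difference was between the pairs.

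The 4 transporters had fitted log2 fold changes from −0.37 to 0.25. SLC2A1 (GLUT1, the main glucose importer of glioma cells) had 78.5 and 101 CPM in invasive 1 and 2, against 98.7 and 54.9 CPM in control 1 and 2. The pairs went in opposite directions, by −0.36 log2 units in pair 1 and 0.87 in pair 2, and the interval of the fitted fold change ran from 0.409 to 3.45. SLC2A3 (GLUT3, the neuronal high-affinity transporter) spanned 43.2 to 49.1 CPM over the 4 libraries. SLC16A1 (MCT1, a proton-coupled lactate carrier) had 160 and 161 CPM in the invasive populations, against 157 and 147 CPM in the controls, with log2 differences of −0.00 in pair 1 and 0.13 in pair 2. SLC16A3 (MCT4, the lactate exporter of glycolytic cells) had 63.1 and 41.9 CPM in the invasive populations, against 74.6 and 58.1 CPM in the controls. It was lower in both pairs, the groups overlapped, and the log2 fold change was −0.37 ± 0.11 (adjusted p = 0.164 by edgeR's quasi-likelihood test). SLC16A3 overlaps 336 exonic bases of CSNK1D on the opposite strand, and CSNK1D had 2267 and 1671 counts in the invasive populations, against 2431 and 1915 in the controls.

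Pyruvate dehydrogenase kinases phosphorylate and switch off pyruvate dehydrogenase, which keeps pyruvate out of the mitochondrial cycle. PDK1, the HIF-induced kinase, had 55.5 and 40.1 CPM in invasive 1 and 2, against 63.8 and 54.7 CPM in control 1 and 2. It was lower in both pairs, with overlapping groups and a log2 fold change of −0.34 ± 0.11 (adjusted p = 0.201, edgeR's quasi-likelihood test). PDK3 had 8.99 and 12.2 CPM in the invasive populations, against 7.69 and 8.94 CPM in the controls. PDK3 was thus higher in both pairs and its groups did not overlap, but its log2 fold change of 0.32 ± 0.19 did not pass the test (adjusted p = 0.42).

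The 13 other hypoxia targets had fitted log2 fold changes from −0.50 (EGLN3) to 0.40 (P4HA1). CA9, a cell-surface carbonic anhydrase used as a hypoxia marker, had 43.2 and 15.8 CPM in invasive 1 and 2, against 53.7 and 24 CPM in control 1 and 2. Each invasive value lay below its paired control, by −0.35 and −0.61 log2 units, yet both pair 1 libraries lay above both pair 2 libraries. The fitted log2 fold change was −0.47 ± 0.12 with an adjusted p of 0.15 by edgeR's quasi-likelihood test. With all 4 libraries and no block it was −0.42. Fits of 3 libraries carry no block, so the difference between pairs enters them, and CA9 was then at 0.29 without control 1 and 0.12 without invasive 2. The pairs of CA12, its relative, went in opposite directions, with 272 and 201 CPM in the invasive populations, against 236 and 303 CPM in the controls. P4HA1, a subunit of the collagen prolyl hydroxylase, had 113 and 130 CPM in the invasive populations, against 102 and 81.1 CPM in the controls. Its groups did not overlap, and its log2 fold change was 0.40 ± 0.15 (adjusted p = 0.238), made up of 0.12 in pair 1 and 0.67 in pair 2.

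Among the remaining targets, BNIP3 and BNIP3L, which bring mitochondria to autophagosomes, had log2 fold changes of 0.05 ± 0.11 and 0.11 ± 0.10, and NDRG1, a stress-induced growth regulator, 0.00 ± 0.13. The pairs of NDRG1 (−0.21 and 0.22) and of BNIP3 (−0.11 and 0.21) went in opposite directions. BNIP3L had 170 and 185 CPM in the invasive populations, against 160 and 165 CPM in the controls, without overlap. EGLN1, the main HIF prolyl hydroxylase, had 65.8 and 62 CPM in the invasive populations, against 58.9 and 64.8 CPM in the controls. Its log2 fold change was 0.03 ± 0.10, and that of EGLN3, at its few counts, −0.50 ± 0.52. ADM, the vasodilator peptide adrenomedullin, had 56.1 and 67.2 CPM in invasive 1 and 2, against 41.5 and 80.7 CPM in control 1 and 2. Its pairs were 0.40 and −0.27 log2 units apart from their controls, and so in opposite directions. ANGPTL4, an inhibitor of lipoprotein lipase, and ANKRD37 were both under 10 CPM in all 4 libraries with opposite pairs. MXI1, an antagonist of MYC, had 11.2 and 12.7 CPM in the invasive populations, against 13.7 and 16.9 CPM in the controls (log2 fold change −0.37 ± 0.16, adjusted p = 0.293). KDM3A, a histone demethylase, had 66.5 and 67.1 CPM in the invasive populations, against 78.8 and 71.5 CPM in the controls (log2 fold change −0.19 ± 0.10, adjusted p = 0.373). The groups did not overlap for either.

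Of the HIF alpha subunits, EPAS1 was lower in both invasive populations and HIF1A overlapped between the groups. EPAS1, which encodes HIF-2 alpha, had 3526 and 2309 counts in invasive 1 and 2, against 5995 and 10069 counts in control 1 and 2. In CPM these were 228 and 167 in the invasive populations, against 336 and 652 in the controls, without overlap. The difference was −0.60 log2 units in pair 1 and −1.97 in pair 2, and the fitted value of −1.28 ± 0.47 did not pass edgeR's quasi-likelihood test (adjusted p = 0.353). The interval of its fold change, 0.119 to 1.43, includes no difference. Control 2, its highest library, was also the library with 2425 CPM of inflammatory genes, whose part in the EPAS1 value was not tested. Without control 2, and then with no block, EPAS1 was at −0.80 log2 units. Without control 1, again with no block, it was at −1.73. HIF1A, which encodes HIF-1 alpha, had 726 and 710 CPM in the invasive populations, against 601 and 749 CPM in the controls. Its groups overlapped and its log2 fold change was 0.08 ± 0.12. Per length, HIF1A made up 79.4% and 83.8% of the 2 subunits' summed TPM in invasive 1 and 2, against 68.4% and 58.2% in control 1 and 2.

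**Figure D3:**
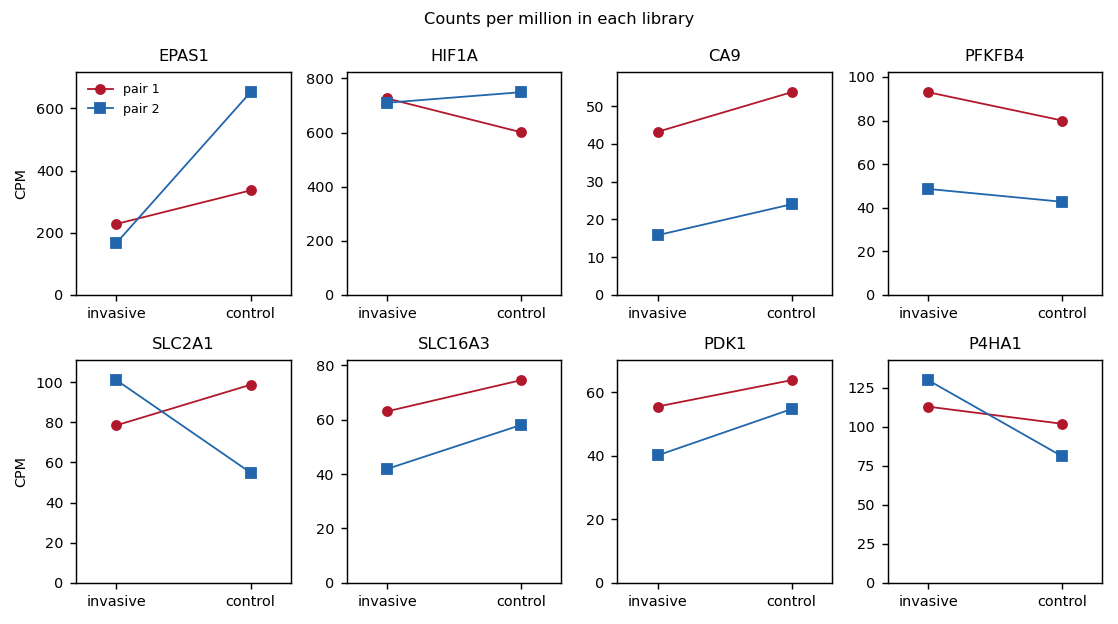
CPM of 8 genes in each library, invasive on the left and control on the right of each panel, with a line joining the libraries of a pair (red circles pair 1, blue squares pair 2). EPAS1 is lower in both invasive populations, SLC2A1 crosses between the pairs, and CA9 and PFKFB4 separate by pair, with 43.2 and 15.8 CPM of CA9 in invasive 1 and 2.

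Within families the dominant isozyme was the same in every library for hexokinase, phosphofructokinase, aldolase, enolase, lactate dehydrogenase, the glucose transporters and the lactate transporters. ALDOA supplied 98.2% to 98.7% of aldolase TPM and ENO1 94.7% to 95.3% of enolase TPM. HK1 supplied 75.7% to 78.6% of the summed TPM of HK1 and HK2. Family shares here cover only members among the 40 genes. HKDC1, a hexokinase-like enzyme outside them, had 29.2 and 32.4 TPM in invasive 1 and 2, against 17.3 and 23.7 TPM in control 1 and 2. PFKP had 50.6% and 59.5% of phosphofructokinase TPM in invasive 1 and 2, against 56.4% and 53.4% in control 1 and 2. LDHA had 63.2% and 64% of lactate dehydrogenase TPM in the invasive populations, against 64.7% and 58.3% in the controls. Among the families plotted, the order changed between libraries for the kinases and the bisphosphate regulators. PDK1 had 52.1% and 36.7% of the TPM of PDK1 and PDK3 in invasive 1 and 2, against 59.4% and 51.9% in control 1 and 2, and was lower in both pairs, by 7.26 and 15.2 percentage points. With the principal transcript's length these shares were 45.5% and 30.8%, against 52.9% and 45.3%. Which of these 2 kinases led in invasive 1 and control 2 thus depended on the length used. PDK2, outside the 40, was not in these shares. By exon length it had 18 and 17.1 TPM in invasive 1 and 2, against 12.6 and 11.3 TPM in control 1 and 2. PFKFB3 had 43.9% and 61.1% in the invasive populations, against 46.1% and 64.1% in the controls, so this share followed the pair and not the group. These shares are descriptions with no test.

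**Figure D4:**
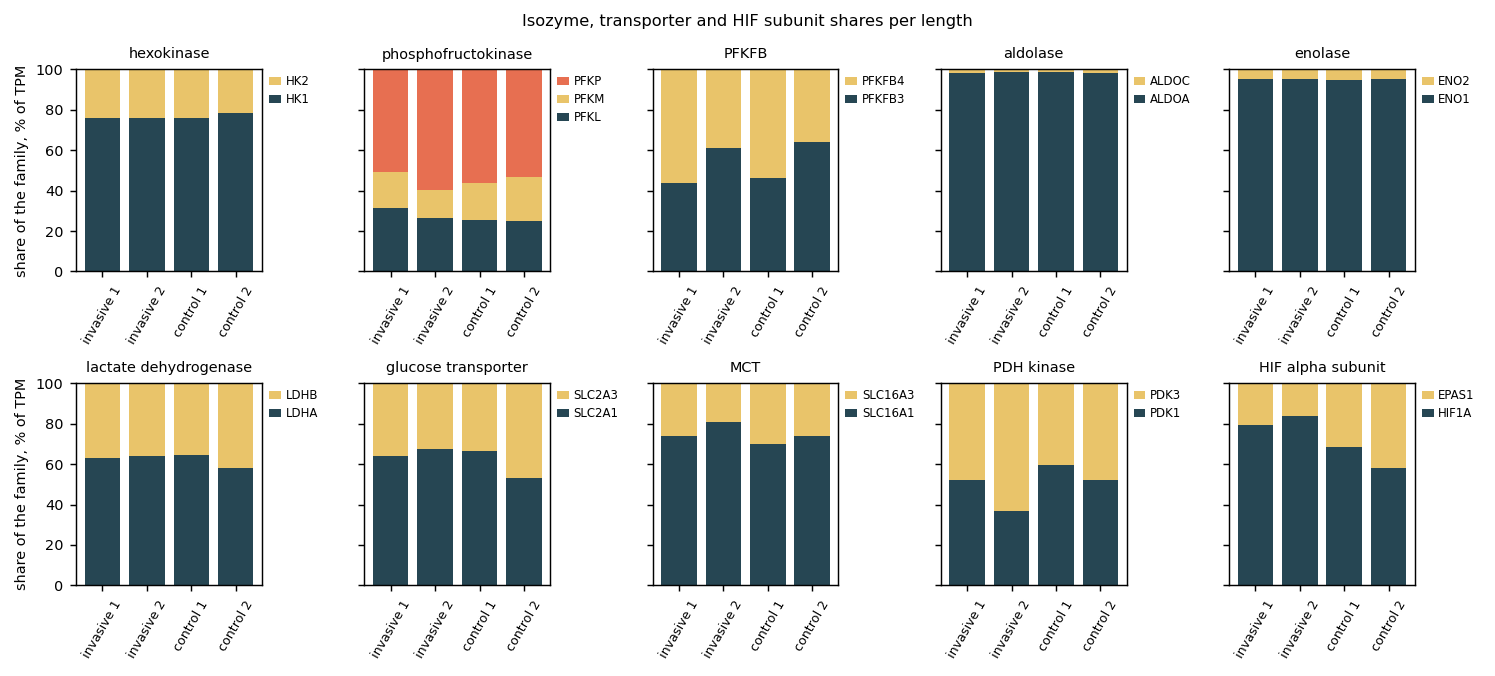
Share of each family's summed TPM held by each member, in percent, in the 2 invasive and 2 control libraries. Families hold only their members among the 40 genes. MCT stands for the lactate transporters, and PDH kinase for PDK1 and PDK3. The shares of aldolase and enolase are nearly identical in the 4 libraries, and HIF1A takes a larger share in both invasive libraries (79.4% and 83.8%) than in both controls (68.4% and 58.2%).

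Set side by side, the glycolytic enzymes and the other hypoxia targets had nearly the same centre. The median log2 fold change was −0.03 over the 17 enzymes and −0.04 over the 13 other targets, a difference of 0.01, and the median of all genes tested was 0.01. The enzymes ranged from −0.24 to 0.27 and the other targets from −0.50 to 0.40. Within pairs the order of the medians changed. In pair 1 the enzymes had a median of −0.08 and the other targets −0.21, a difference of 0.14 before rounding. In pair 2 they had −0.04 and 0.13, a difference of −0.17. Summed over each group, the enzymes came to 24633 and 20962 CPM in invasive 1 and 2, against 25284 and 21316 CPM in control 1 and 2. The other targets came to 1118 and 1037 CPM in the invasive populations, against 1099 and 1062 CPM in the controls. Pairs of libraries allow no permutation test of these medians that could reach the threshold.

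CA9 and PFKFB4 were lower in pair 2 than in pair 1, and 24 of the 40 genes had a larger fitted difference between the pairs than between the groups, as did 47.5% of all genes tested. In the same fit, with the group held constant, pair 2 was compared with pair 1, a comparison added after the values had been seen. CA9 had 15.8 and 24 CPM in invasive 2 and control 2, against 43.2 and 53.7 CPM in invasive 1 and control 1. It was lower in pair 2 by a log2 difference of −1.30 ± 0.13 (adjusted p = 0.0352 in edgeR's quasi-likelihood test). PFKFB4 had 48.6 and 42.7 CPM in invasive 2 and control 2, against 93 and 80 CPM in invasive 1 and control 1, a log2 difference of −0.92 ± 0.10 (adjusted p = 0.0494). These were the 2 genes of the 40 called lower in pair 2, where 0.0422% of all genes were called lower, and 0 of the 40 were called higher (0.0562% of all genes). With a minimum of 50 counts in 2 libraries PFKFB4 was not called (adjusted p = 0.055 by edgeR's quasi-likelihood test). In fits of 3 libraries, which carry no term for the group, the differences ran from −1.64 to −1.01 for CA9 and from −1.02 to −0.83 for PFKFB4. Without invasive 1 or control 1 neither was called, in fits that called 0 genes of the whole table, and without control 2 CA9 was called and PFKFB4 was not. ADM had the highest difference in the other direction, 0.61 ± 0.17, which did not pass (adjusted p = 0.245).

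All 17 glycolytic enzymes had a negative log2 difference between pair 2 and pair 1, with a median of −0.23, and 50.7% of all genes tested were negative. Leaving out 1 library at a time left 15 to 16 of the 17 negative. The most negative were TPI1 at −0.45 ± 0.10, LDHA at −0.41 ± 0.11 and ENO2 at −0.40 ± 0.10, none of which passed the adjusted threshold (adjusted p = 0.179, 0.203 and 0.197 by edgeR's quasi-likelihood test). Of the 40 genes 10 were lower and 1 higher at an unadjusted p under 0.05, with backgrounds of 7.58% and 7.24%. The HIF alpha subunits had fitted differences of 0.14 ± 0.12 for HIF1A and 0.26 ± 0.47 for EPAS1, and both 95% intervals include 0. Both were lower in invasive 2 than in invasive 1 and higher in control 2 than in control 1. All 11 cell cycle genes listed had negative log2 differences as well, with a median log2 difference of −0.30, and their part in the enzymes' difference was not tested. The study analysed its libraries pair by pair, so a difference in culture, handling or sequencing between pairs cannot be told apart from one between populations.

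**Figure D5:**
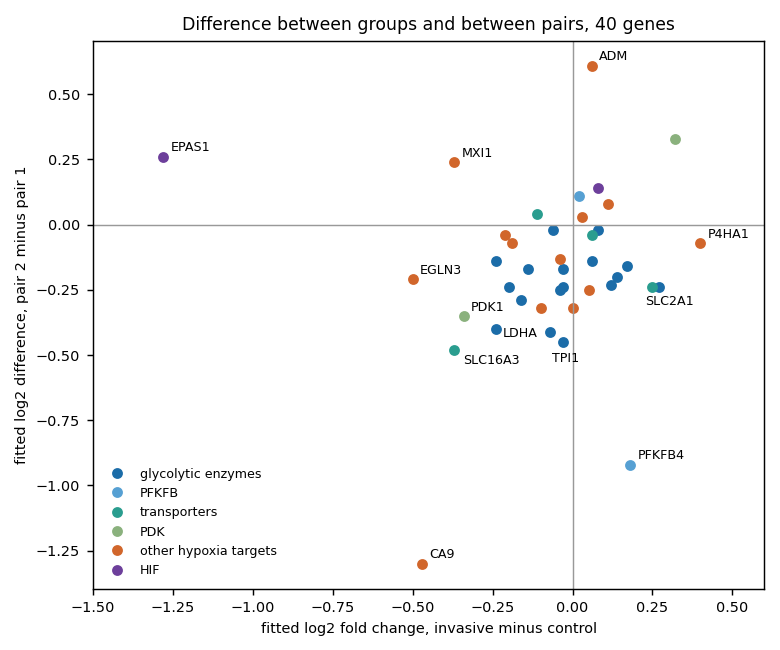
Fitted log2 fold change between invasive and control populations (horizontal) against the fitted log2 difference between pair 2 and pair 1 (vertical) for the 40 genes, coloured by role. CA9 (−1.30) and PFKFB4 (−0.92) lie lowest, all 17 glycolytic enzymes lie below the horizontal line at 0, and EPAS1 lies far to the left.

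Further genes of the hypoxia response gave 1 call. Of 32 listed, 29 were tested, and 1 was called higher and 0 lower, where 0.239% of all genes were called higher and 0.0351% lower. STC2, a secreted glycoprotein of the stanniocalcin family, had 5244 and 6458 counts in invasive 1 and 2, against 3003 and 2761 counts in control 1 and 2. Both invasive values were above both controls, and the log2 fold change was 1.18 ± 0.13 (adjusted p = 0.0337 by edgeR's quasi-likelihood test). The call held with DESeq2 (adjusted p = 8.64e-09), RLE size factors and no filter on low counts. With no replicate block the log2 fold change was 1.20, but edgeR's adjusted p was 0.171. In fits of 3 libraries, which have no block, it ran from 0.94 to 1.40 and was called without invasive 1 but not without control 1, control 2 or invasive 2. Its paralogue STC1 had 232 CPM in both invasive populations, against 422 and 797 CPM in the controls, a log2 fold change of −1.34 ± 0.24 (adjusted p = 0.13). Without the filter on low counts edgeR's quasi-likelihood test called STC1 lower (adjusted p = 2.35e-15), as it did 2.71% of all genes. DESeq2 with the block did not call STC1 (adjusted p = 0.101). Control 2, its highest library, was also the library with 2425 CPM of inflammatory genes, whose part in the STC1 value was not tested. In fits with no block, STC1 was at −0.89 log2 units without control 2 and −1.79 without control 1. VEGFA, the vascular growth factor and a standard HIF target, had 411 and 364 CPM in the invasive populations, against 559 and 584 CPM in the controls. It was lower in both pairs without overlap, at −0.58 ± 0.11, and missed the threshold in edgeR's quasi-likelihood test (adjusted p = 0.0968). DESeq2 with the block called VEGFA lower. So did edgeR's quasi-likelihood test without the filter on low counts (adjusted p = 7.88e-06), which called 2.71% of all genes lower.

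In the other branches of glucose metabolism edgeR's test called no gene, although HKDC1, PDK2 and MPC1 were among those called without the filter on low counts. Of 23 further isozymes 11 were tested, and 3 were higher at an unadjusted p under 0.05, where 9.82% of all genes were higher and 8.41% lower. They were HKDC1, a hexokinase-like enzyme, at 0.58 ± 0.13 log2 units, PDK2 at 0.54 ± 0.13 and PDK4 at 1.08 ± 0.38. PDK4 had few counts, with 39 and 23 in invasive 1 and 2, against 25 and 9 in control 1 and 2. In CPM these were 2.52 and 1.66 in the invasive populations, against 1.4 and 0.583 in the controls. Of 13 genes of pyruvate entry and gluconeogenesis 10 were tested, and MPC1, a subunit of the mitochondrial pyruvate carrier, stood at 0.72 ± 0.18. It had 20.4 and 28.5 CPM in the invasive populations, against 14.9 and 14 CPM in the controls. In the pentose phosphate pathway PGLS, the lactonase, was at 0.27 ± 0.11 log2 units, and RPIA, the ribose 5-phosphate isomerase, at −0.40 ± 0.17. In the serine branch, with 5 of 5 tested, PHGDH, its first enzyme, was at 0.24 ± 0.09 and PSPH, the phosphatase of its last step, at −0.32 ± 0.12. The lowest adjusted p among these branches was 0.114 (HKDC1, edgeR's quasi-likelihood test).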

How the data were processed

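Per the file headers and values, the authors deposited a table of raw counts per Ensembl gene for each of the 4 libraries, not normalized. They also deposited a normalized value rounded to whole numbers, treated as a score because its method is nowhere described. The scores entered 1 alternative. The submitters' processing notes list GRCh38 as the build and TopHat2 2.0.12, HTSeq, bcl2fastq 1.8.4, DESeq2 and Bowtie as tools, without their roles. Per the labels' protocols, RNA with a RIN above 8 went into strand-specific polyadenylated libraries with 12 PCR cycles. The strand setting of the counting is not known here.

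Over the 29387 genes of all 4 tables, edgeR's quasi-likelihood F test (edgeR 4.0.16, limma 3.58.1, R 4.3.3; two-sided, TMM factors, robust prior) was fitted with the pair as a block after filterByExpr (minimum count 10, minimum total 15), which left 14231 genes. Benjamini-Hochberg adjustment at 0.05 covered all of them. The design has 1 residual degree of freedom, a prior worth 5.45 and a coefficient of variation of 12.2%. Errors on log2 fold changes are standard errors from the same test, and within-pair values are differences of log2 CPM with a prior count of 2. TPM used exon-union lengths of GENCODE v29, which covered 99.9205% of counts. The test was run on simulated counts in which every gene had the same dispersion, so that run does not cover genes of uneven spread.

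The pairing follows the series' design text. The difference between pairs correlated across genes between the 2 groups (r 0.283, a description across genes). Nothing in the labels says that the populations came from separate cultures beyond independent derivation, so p-values measure the spread between these libraries. Libraries of a group were not duplicates: their chi-square, divided by its degrees of freedom, was 19.6 for the invasive and 31.5 for the control libraries.

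The genes and lists were chosen with earlier results of these data known. Per-library values were given for genes with an unadjusted p under 0.05, at least 1.5-fold different in both pairs or at least 2-fold in either, and for the most abundant member of each family. The other genes of the 40 whose values are printed were picked after their values were seen. Genes outside the 40 were named where the unadjusted p was under 0.05 or both pairs differed at least 2-fold. ERO1A and TIGAR are listed under older symbols. AIF1 and PCK1 were not analysed here. A gene of the further lists is not reported here.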

Additional observations from a re-analysis of the deposited data

How the results depend on the processing

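Over all genes, the fit with no replicate block called 2 higher and 0 lower; the pairing is in the main design because the study states it. RLE size factors gave 80 and 9, DESeq2 with the block 142 and 29, and no filter on low counts 760 and 693. Without the filter 1 of the 40 genes was called higher (P4HA1) and 3 lower (CA9, PDK1 and SLC16A3). In the comparison of the pairs no filter gave 8 of the 40 lower and 1 higher (2.1% and 1.66% of all genes). A minimum of 50 counts in 2 libraries gave 1 lower (CA9, without PFKFB4), where 5 of all 11583 genes in that fit were called lower. Leaving out 1 library, in fits with no block, gave 4 to 83 genes higher and 0 to 87 lower. Each such fit left 1 group and 1 pair with 1 library. The median of the glycolytic enzymes then ran from −0.192 without control 2 to 0.115 without control 1, and was 0 on the authors' scores with a pseudocount of 1, which cover 37 of the 40 genes. CA9 reversed to 0.287 without control 1 and to 0.122 without invasive 2, within a range of −1.333 to 0.287. In those 3-library fits the groups are unbalanced by pair, so the difference between pairs enters the value; both within-pair differences of CA9 are negative. The cause of the other changes was not tested. The median of the other hypoxia targets ran from −0.205 without control 2 to 0.093 without control 1. That median, and its difference from that of the enzymes, moved by less than the spread between pairs under every alternative tried. The spread rests on only 2 pair values, −0.21 and 0.13 for the other targets, against −0.08 and −0.04 for the enzymes. It was a wider allowance for the other targets, so it does not show that their median was the steadier. With 1 residual degree of freedom, calls rest largely on the prior, and EGLN3, at 8 to 19 counts, is limited by depth.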
